A study of Homo sapiens with 36 samples.

Results

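The MYC, MAX and MXD network was followed through 9 genes in human fibroblasts given the proneural transcription factor NEUROG2, with or without a pair of small molecules. The genes are MYC, MYCN, MYCL1, MAX, MXD1, MXD3, MXD4, MXI1 and MNT, chosen as the rows carrying those names, and all 9 were found among the 23146 loci of each of the authors' 9 tables. MRC-5, the cell used, is an established line of fetal lung fibroblasts, so every group comes from 1 line. NFD cells carried a lentivirus for HA-tagged NEUROG2 and were kept in neuron induction medium with 10 µM forskolin, which switches on adenylyl cyclase, and 1 µM dorsomorphin, which blocks AMPK and the type I receptors of BMP ligands. N cells carried the NEUROG2 virus in induction medium without the molecules. FD cells carried a GFP virus and received both molecules in induction medium, and GFP cells carried the GFP virus alone. One label places the GFP cells in serum medium and another in induction medium, so a difference from GFP cells may also hold an effect of the medium. RNA was taken at 0.5, 1 and 2 days post treatment (DPT), which gives 12 groups of 3 libraries (36 libraries). The labels do not say whether the 3 libraries are separate cultures, so p-values measure only the spread between these libraries, which may be technical.

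MYC, MYCN and MYCL1 encode basic helix-loop-helix leucine zipper factors that pair with MAX, bind the E-box CACGTG and activate genes of growth, ribosome production and the cell cycle. MXD1, MXD3, MXD4, MXI1 and MNT encode factors that compete for MAX and the same sites and repress through the SIN3 and HDAC corepressor. In many lineages MYC falls and MXD genes rise as cells leave the cycle and differentiate.

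Levels are the authors' FPKM (fragments scaled to transcript length and library size), which are per length and given as 1 value per group. No SD can be given for a level, and the depth of the libraries is unknown. A change was called where the q-value of the authors' test did not exceed 0.05, and fold changes are log2 of the condition over GFP of the same time. The 95% intervals were worked back from the deposited p-values, and they are wider than the true interval where the p-value sits at the smallest one deposited, 5e-05. Runs of 3 values give 0.5, then 1, then 2 DPT. RNA came from whole cultures, so fewer cells of a type and less RNA per cell cannot be told apart.

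NEUROG2, the check of the labels, rose by 6.16, 7.12 and 7.43 in N cells (authors' deposited tables). The NFD tables list it at 0 with a mark for too many fragments, so NFD has no NEUROG2 value. The same gene stood at 36.7, 18.5 and 15.3 FPKM in GFP and 12.7, 12.3 and 15.4 in FD cells, which lacked its virus. N levels were 2616, 2565 and 2641 FPKM. Its FD folds of -1.53 and -0.58 at 0.5 and 1 DPT were called as falls. At 2 DPT 0.01 did not pass (authors' deposited tables). The source of NEUROG2 fragments in cells without the virus was not tested. Nor was its bearing on low GFP levels such as those of MYCL1. All 11 fibroblast markers were at 1 FPKM or more in every condition, and their sum ranged from 1389 to 4376 FPKM in NFD cells, 6220 to 6273 in N cells, 5779 to 5945 in FD cells and 8084 to 9959 in GFP cells in the authors' deposited tables. Of 8 neuron markers, 3 reached 1 FPKM in NFD and in N cells and 1 did in FD and in GFP cells, and ELAVL4 was listed at 0 in N and GFP cells at all times. The neuron marker sum, most of it TUBB3, a neuronal tubulin, ran from 76.7 to 189 FPKM in NFD cells, 50.0 to 144 in N cells and 174 to 421 in FD cells, against 160 to 250 in GFP cells, in the authors' deposited tables. Of 4 skeletal muscle markers, 3 reached 1 FPKM in NFD cells, 2 in N cells and 1 in FD and in GFP cells. The part of these marker differences in the results that follow was not tested.

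Against GFP, NFD cells had the most members called at 0.5 and 1 DPT. At 2 DPT the N count was the highest only because it includes MYCN, at 0.509 FPKM in N and 0 in GFP cells. MYCN was tested in that comparison alone, so the counts at 2 DPT do not rank N above NFD. In NFD cells 6 members rose and 2 fell at 0.5 DPT, 5 rose and 1 fell at 1 DPT, and 4 rose at 2 DPT, of 8 tested at each time in the authors' deposited tables. Across all tested loci, 63.4%, 65.8% and 66.1% were called in those comparisons, so the counts of 8, 6 and 4 of 8 lie above, near and below that background. Falls alone took 31.3%, 33.2% and 32.0% of loci. In N cells 3 rose and 1 fell of 8 at 0.5 DPT and again at 1 DPT, and 3 rose and 2 fell of 9 at 2 DPT, against backgrounds of 50.5%, 54.7% and 57.1% in either direction and 24.3%, 29.3% and 30.0% for falls. In FD cells 2 rose and 1 fell at 0.5 and at 1 DPT, and 1 rose and 1 fell at 2 DPT, of 7 tested, against backgrounds of 36.6%, 38.3% and 38.5% in either direction and 18.8%, 22.3% and 21.6% for falls. The members' median log2 fold change was 0.89, 0.71 and 0.46 in NFD, 0.26, 0.35 and 0.19 in N and 0.14, 0.17 and 0.13 in FD cells, while the median over all tested loci lay between -0.04 and 0.04. The NFD and N medians include MYCL1, with folds of 6.52 to 7.71, which was not tested in FD cells. The medians are therefore over unlike sets of members and do not rank the conditions. The NFD, N and FD comparisons at one time share the GFP libraries.

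**Figure D1:**
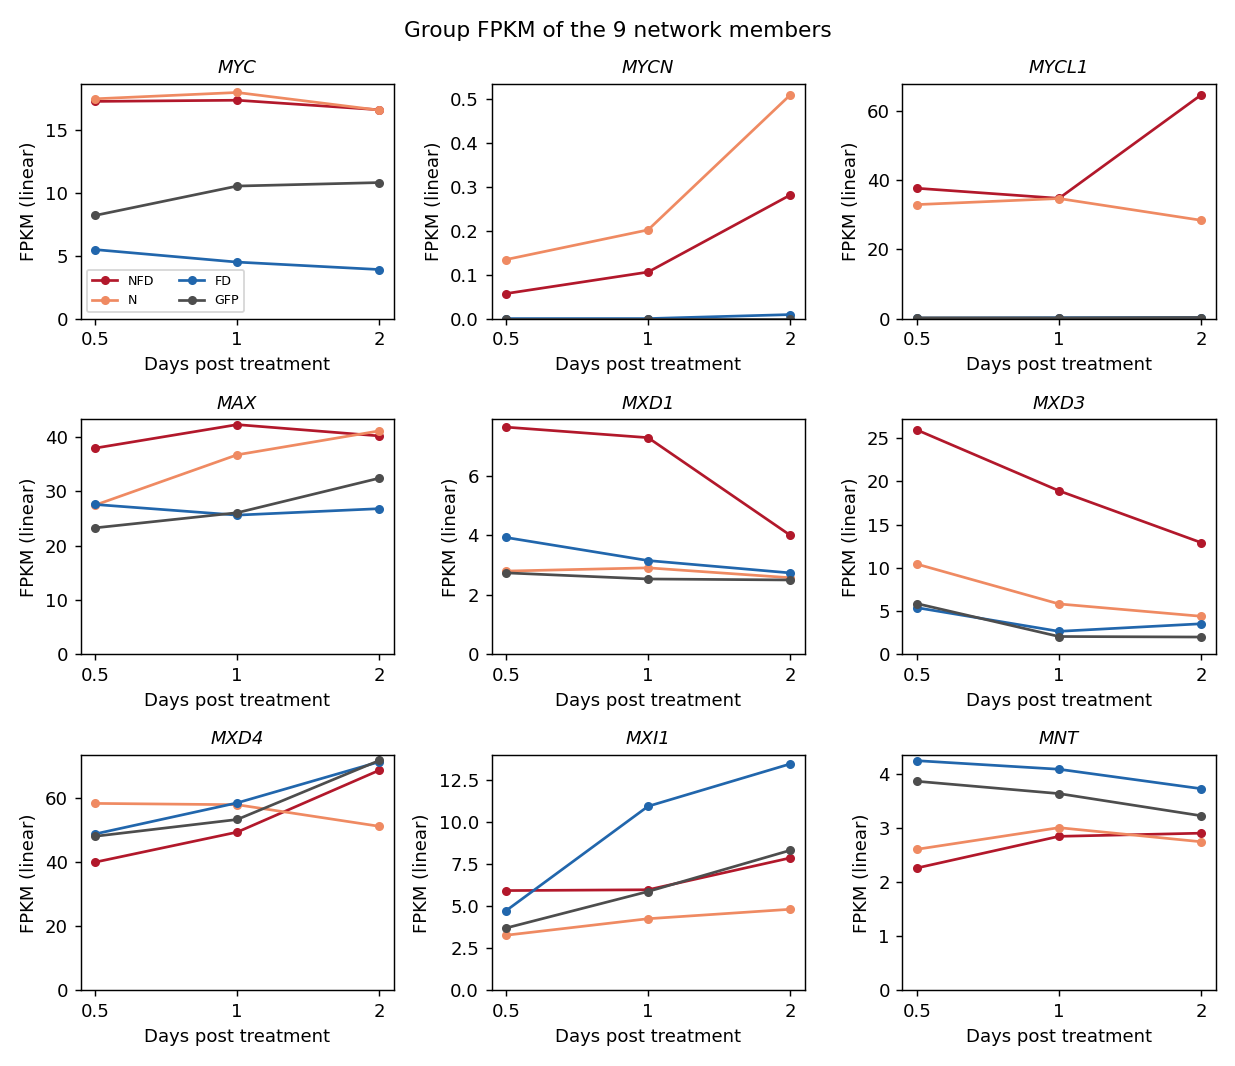
Group FPKM (linear axis from 0) of the 9 members at 0.5, 1 and 2 days post treatment in NFD, N, FD and GFP cells, with 1 point per group of 3 libraries and no error. MYC is at 16.6 to 18.0 in NFD and N cells and at 3.91 to 5.50 in FD cells, and MYCL1 is near 0 in FD and GFP cells.

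MYC (chromosome 8, 128748314 to 128753680, hg19), the most widely expressed of the 3 activators, was higher in both NEUROG2 groups and lower in FD cells than in GFP cells. The deposited levels were 17.3, 17.4 and 16.6 FPKM in NFD cells, 17.5, 18.0 and 16.6 in N cells and 5.50, 4.50 and 3.91 in FD cells, against 8.21, 10.6 and 10.8 in GFP cells, in the authors' deposited tables. The order at each time was therefore NFD and N together at the top, then GFP, then FD. The authors' deposited log2 fold changes were 1.07, 0.72 and 0.62 in NFD, 1.09, 0.77 and 0.62 in N and -0.58, -1.23 and -1.47 in FD cells, each with a q-value of 0.000151. The first NFD value has a 95% interval of 0.56 to 1.59 and the last FD value one of -2.18 to -0.76. PVT1, the long noncoding RNA gene next to MYC, passed only in FD cells at 1 DPT, with -0.54 in the authors' deposited tables. The PVT1 locus carries 5 gene names, so its reads may be uncertain.

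NFD is compared with neither N nor FD in the deposited tables, so the difference of both fold changes was tested approximately, with Benjamini-Hochberg adjustment over all loci. For MYC, NFD minus N was -0.02, -0.05 and 0.00, with intervals of -0.76 to 0.72, -0.56 to 0.46 and -0.42 to 0.42. Differences up to the ends of those intervals remain possible. NFD minus FD was 1.65, 1.95 and 2.09 for MYC, and all 3 passed, with adjusted p of 3.3e-06, 1.89e-06 and 3.96e-06. MYC was therefore lower in FD than in GFP cells, which may also differ in medium. No difference between the NEUROG2 groups with and without the molecules passed the test. The departure of NFD from the sum of the N and FD effects was 0.56, 1.18 and 1.47. Its adjusted p was 0.624, 0.0284 and 0.00619 by the approximate test. GFP cells enter each of these effects, so the departure may also hold an effect of the medium, which was not tested. The share of all loci with a called departure was 3.30%, 13.8% and 16.1%, and MYC was the 1 member called at 1 and at 2 DPT. At 0.5 DPT the count of members was 0 of 7 by the approximate test, with 3 at an unadjusted p under 0.05.

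MYCL1 (chromosome 1, 40361095 to 40367687), the L-MYC gene (MYCL in RefSeq) first described in lung cancer, had the largest fold changes among the members in NFD and N cells. Its levels were 37.7, 34.7 and 64.7 FPKM in NFD cells, 32.9, 34.7 and 28.4 in N cells and 0.145, 0.258 and 0.309 in FD cells, against 0.212, 0.184 and 0.309 in GFP cells, in the authors' deposited tables. The NFD and N levels lie far above those of FD and GFP cells at each time. MYCL1 rose by 7.47, 7.56 and 7.71 in NFD and by 7.28, 7.56 and 6.52 in N cells (q-value 0.000151 each, authors' deposited tables), and the FD rows were not tested by the authors. At 2 DPT the NFD level was above the N level, a log2 difference of 1.19 with an interval of -3.69 to 6.07. That interval is a bound set by the smallest deposited p-value, so this test could not have passed for MYCL1.

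MYCN (chromosome 2, 16080019 to 16087129), the N-MYC gene of neural progenitors, stayed near the bottom of the range. Transcript levels were 0.0567, 0.106 and 0.281 FPKM in NFD cells, 0.134, 0.202 and 0.509 in N cells and 0, 0 and 0.00909 in FD cells in the authors' deposited tables. GFP cells were listed at 0 at all 3 times, so no fold is given. MYCN rose in N cells at 2 DPT (q-value 0.000151, authors' deposited tables), and the authors tested it in no other comparison. The locus is shared with MYCNOS, an antisense gene, and whether the authors' counting used strand is not given in the sources used here.

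The makeup of the MYC family changed with NEUROG2. The summed FPKM of MYC, MYCN and MYCL1 from the authors' deposited tables was 55.0, 52.2 and 81.6 in NFD cells, 50.6, 52.9 and 45.5 in N cells and 5.64, 4.76 and 4.22 in FD cells, against 8.42, 10.7 and 11.1 in GFP cells. MYCL1 made up 68.5%, 66.5% and 79.3% of that sum in NFD and 65.1%, 65.6% and 62.4% in N cells, against 2.52%, 1.71% and 2.77% in GFP cells. MYC was thus the smaller part of the family transcript with NEUROG2 and nearly the whole of it without.

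**Figure D2:**
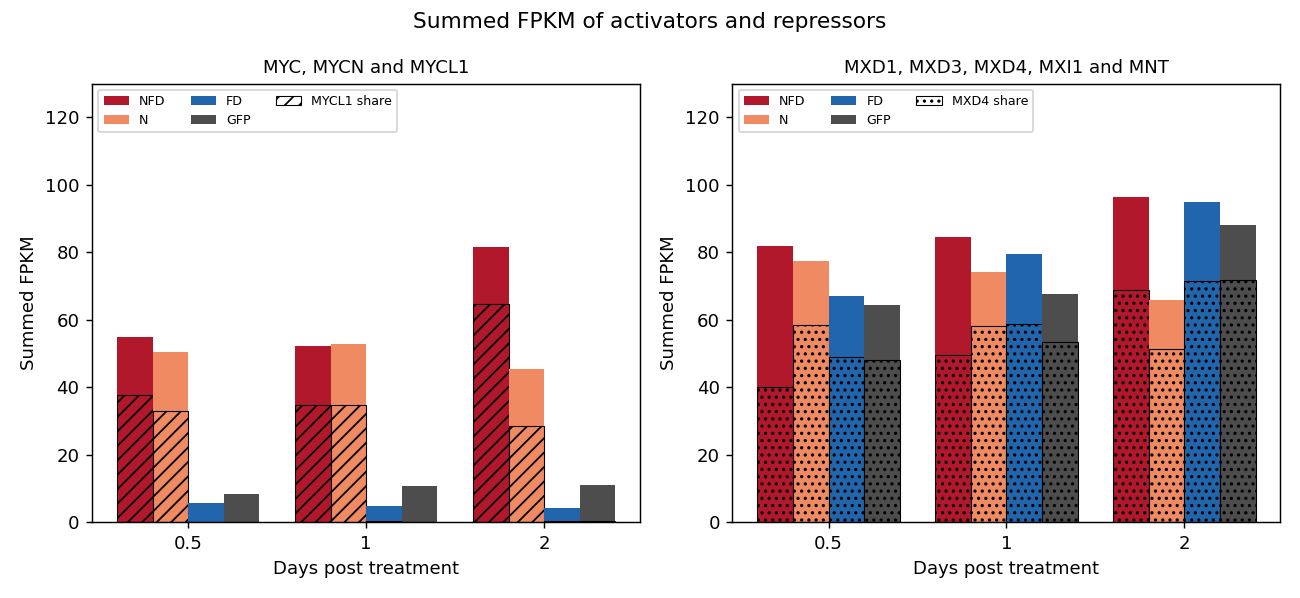
Summed FPKM (linear axis from 0) of MYC, MYCN and MYCL1 on the left and of MXD1, MXD3, MXD4, MXI1 and MNT on the right, by days post treatment, with 1 bar each for NFD, N, FD and GFP cells and no error. Hatching marks the MYCL1 part and dots the MXD4 part, and MYCL1 fills 62.4% to 79.3% of the NFD and N bars on the left.

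MAX (chromosome 14, 65381078 to 65569227), the shared partner, rose in NFD cells at 0.5 and 1 DPT alone. It was listed at 37.9, 42.2 and 40.2 FPKM in NFD cells, 27.4, 36.7 and 41.1 in N cells and 27.6, 25.6 and 26.8 in FD cells, against 23.3, 26.0 and 32.4 in GFP cells, in the authors' deposited tables. MAX rose in NFD cells at 0.5 and 1 DPT, with 0.71 (q-value 0.00941) and 0.70 (q-value 0.0192), and gave 0.31 at 2 DPT (q-value 0.338), in the authors' deposited tables. No N or FD value of MAX passed, and NFD minus N was 0.47, 0.20 and -0.03, none of which passed. The MAX row shares its locus with CHURC1, FNTB, GPX2 and RAB15, so its reads may be split among overlapping genes.

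Among the repressors, MXD1 and MXD3 rose in NFD cells at every time. MXD1 (chromosome 2, 70142172 to 70170076), a MAX partner induced in many differentiating cells, was listed at 7.64, 7.29 and 4.00 FPKM in NFD cells, 2.80, 2.91 and 2.58 in N cells and 3.93, 3.16 and 2.74 in FD cells, against 2.74, 2.54 and 2.50 in GFP cells, in the authors' deposited tables. NFD stood above the other 3 groups at each time, and N and GFP lay close together. The authors' deposited log2 fold changes were 1.48, 1.52 and 0.68 in NFD cells (q-value 0.000151 each) and 0.03, 0.20 and 0.04 in N cells, none of which passed. In FD cells they were 0.52 (q-value 0.000151), 0.32 (q-value 0.0299) and 0.13 (q-value 0.408) in the authors' deposited tables. By the approximate test NFD exceeded N by 1.45, 1.32 and 0.64 and exceeded FD by 0.96, 1.21 and 0.55, and all 6 differences passed. The departure from the summed effects was 0.93, 1.01 and 0.50 with adjusted p of 0.242, 0.0876 and 0.159 by the approximate test, so it was not called. The errors of these departures are upper bounds, so a departure of MXD1 remains possible.

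MXD3 (chromosome 5, 176730834 to 176739292), the MXD gene linked to proliferating cells and S phase, had the largest fold changes among the repressors in NFD and N cells. The deposited levels were 25.9, 18.9 and 12.9 FPKM in NFD cells, 10.4, 5.83 and 4.41 in N cells and 5.40, 2.67 and 3.54 in FD cells, against 5.88, 2.07 and 2.01 in GFP cells, in the authors' deposited tables. Each condition's level was highest at 0.5 DPT, and NFD stood above N at each time. MXD3 rose by 2.14, 3.19 and 2.69 in NFD cells (q-value 0.000151 each) in the authors' deposited tables. In N cells 1.50 at 1 DPT passed (q-value 0.0244), while 0.83 at 0.5 DPT (q-value 0.0848) and 1.13 at 2 DPT (q-value 0.0874) did not, in the authors' deposited tables. FD folds of -0.12, 0.37 and 0.82 did not pass for MXD3, in the authors' deposited tables. NFD minus N was 1.31, 1.70 and 1.55 and did not pass the approximate test (adjusted p 0.191, 0.227 and 0.215). The intervals were -0.01 to 2.64, -0.24 to 3.63 and -0.18 to 3.28. Their errors are upper bounds, because the NFD p-values are the smallest deposited, so this test cannot settle whether NFD exceeds N for MXD3. NFD minus FD passed at 0.5 and 1 DPT with 2.26 and 2.83. The locus is shared with PRELID1, so MXD3 reads may be uncertain.

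MXD4 (chromosome 4, 2249159 to 2263739), the most abundant repressor transcript, was called in N cells at 0.5 and 2 DPT and in NFD cells at 0.5 DPT. Its levels were 40.1, 49.5 and 68.8 FPKM in NFD cells, 58.4, 58.0 and 51.3 in N cells and 48.9, 58.6 and 71.5 in FD cells, against 48.2, 53.4 and 71.9 in GFP cells, in the authors' deposited tables. NFD, FD and GFP levels were higher at each later time and N levels were lower. In N cells MXD4 rose by 0.28 at 0.5 DPT (q-value 0.0254), gave 0.12 at 1 DPT (q-value 0.370) and fell by 0.49 at 2 DPT (q-value 0.000291) in the authors' deposited tables. The change of the N fold between 0.5 and 2 DPT was -0.77 with an adjusted p of 0.000178 by the approximate test, where 12.5% of all loci were called. In NFD cells MXD4 fell by 0.27 at 0.5 DPT (q-value 0.0345, authors' deposited tables), and its NFD folds of -0.11 and -0.06 at 1 and 2 DPT did not pass. FD folds of 0.02, 0.13 and -0.01 did not pass either, in the authors' deposited tables. For MXD4, NFD minus N was -0.55 at 0.5 DPT (interval -0.86 to -0.23), which passed, while -0.23 at 1 DPT and 0.42 at 2 DPT (adjusted p 0.0564) did not. The MXD4 locus carries 2 gene names, so its reads may be uncertain, as may the repressor sums that include it.

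MXI1 (chromosome 10, 111967362 to 112047123), a MAX partner that is also a hypoxia target, was higher with the molecules. Transcript levels were 5.92, 5.97 and 7.86 FPKM in NFD cells, 3.26, 4.25 and 4.81 in N cells and 4.71, 10.9 and 13.4 in FD cells, against 3.69, 5.86 and 8.31 in GFP cells, in the authors' deposited tables. N had the lowest level at each time, and FD the highest at 1 and 2 DPT. MXI1 rose by 0.35, 0.90 and 0.69 in FD cells and fell in N cells at 1 and 2 DPT, with -0.47 and -0.79, in the authors' deposited tables. In NFD cells it rose by 0.68 at 0.5 DPT, with 0.03 and -0.08 later, which did not pass, in the authors' deposited tables. NFD exceeded N by 0.86, 0.49 and 0.71, with adjusted p of 0.00248, 0.0433 and 0.0164, and was below FD at 1 and 2 DPT by -0.87 and -0.77. The NFD fold changed by -0.76 between 0.5 and 2 DPT, with an adjusted p of 0.00267, where 22.6% of all loci were called.

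MNT (chromosome 17, 2287353 to 2304258), a MAX partner found in resting and growing cells alike, fell in 3 of the 6 comparisons of NEUROG2 groups with GFP. It was listed at 2.26, 2.85 and 2.91 FPKM in NFD cells, 2.61, 3.01 and 2.75 in N cells and 4.26, 4.10 and 3.74 in FD cells, against 3.87, 3.64 and 3.23 in GFP cells, in the authors' deposited tables. Both NEUROG2 groups lay below both groups without it at each time. MNT fell in NFD cells at 0.5 and 1 DPT, with -0.77 and -0.35, and in N cells at 0.5 DPT, with -0.57, in the authors' deposited tables. At 1 DPT the N value of -0.27 narrowly missed the threshold (q-value 0.0531, authors' deposited tables). At 2 DPT neither -0.15 in NFD cells (q-value 0.340) nor -0.23 in N cells (q-value 0.117) passed for MNT, in the authors' deposited tables. NFD was below FD by -0.91 and -0.52 at 0.5 and 1 DPT, and the NFD fold changed by 0.62 between 0.5 and 2 DPT, with an adjusted p of 0.0366. For FD no member's fold was called as changed over time by the approximate test, with 2 of 7 at an unadjusted p under 0.05, where 10.8% of all loci were called.

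**Figure D3:**
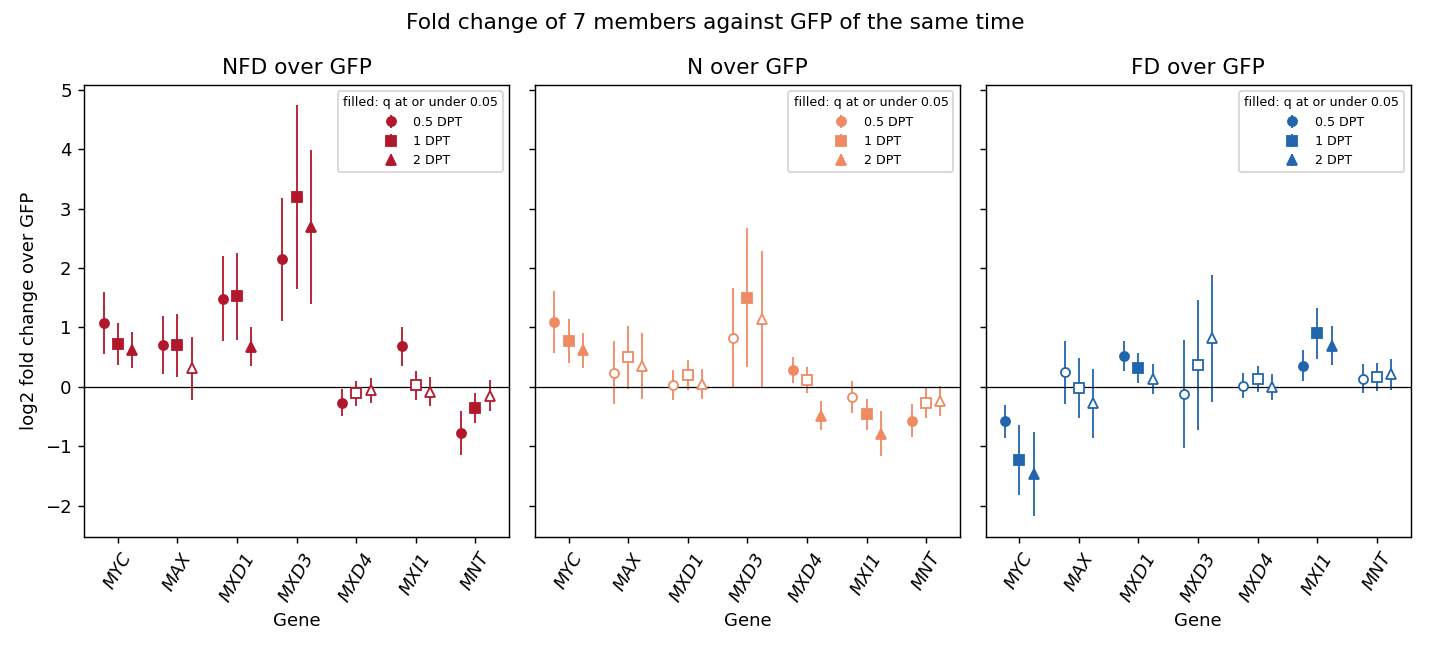
Log2 fold change over GFP of the same time for 7 members in NFD, N and FD cells, with 95% intervals worked back from the deposited p-values and filled symbols for a q-value of 0.05 or less. MXD3 and MXD1 are raised at all 3 times in NFD cells, and MYC lies below 0 in FD cells.

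**Figure D4:**
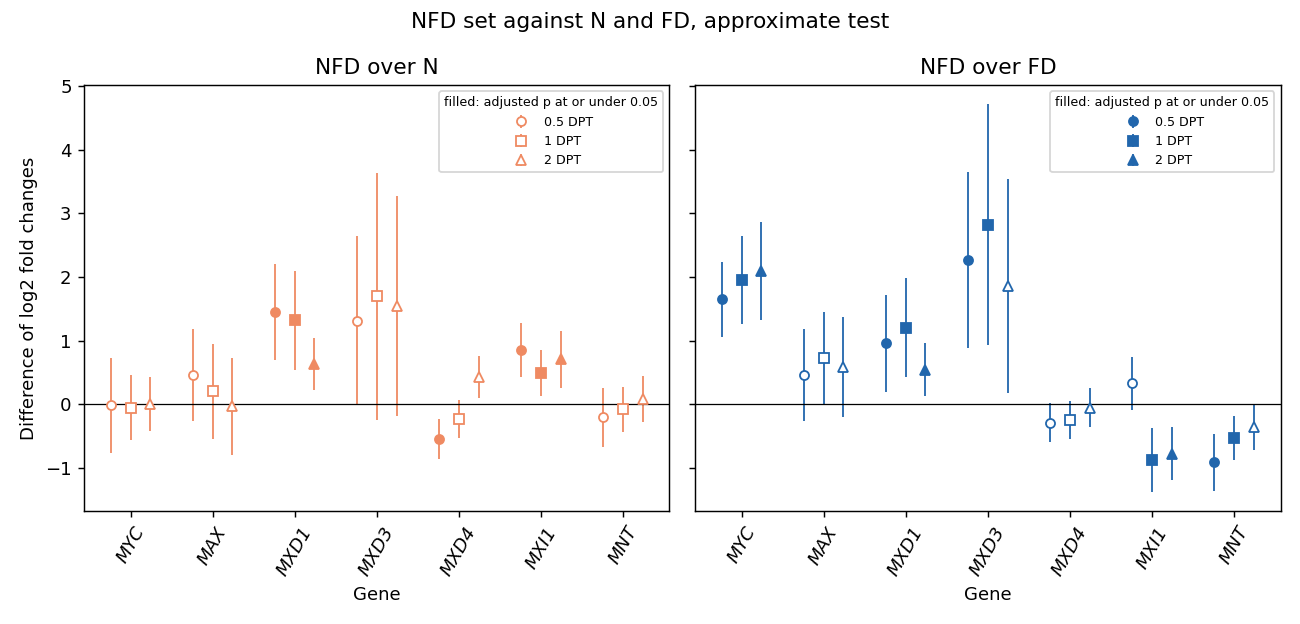
Difference of the log2 fold changes of NFD and N, on the left, and of NFD and FD, on the right, for 7 members at 3 times, with approximate 95% intervals and filled symbols where the adjusted p is at or under 0.05. On the left, MXD1 and MXI1 are higher in NFD than in N cells at all 3 times, while the MYC intervals span 0. On the right, the MYC intervals lie above 0.

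Set against N, NFD cells had 2 members higher and 1 lower of 8 at 0.5 DPT, and 2 higher at each later time, where 12.4%, 18.5% and 18.7% of all loci were called, 5.51%, 9.39% and 9.67% as higher and 6.91%, 9.06% and 9.02% as lower. MXD1 and MXI1 were the pair that was higher at all 3 times. Set against FD, 3 were higher and 1 lower of 7 at 0.5 DPT, 3 higher and 2 lower at 1 DPT, and 2 higher and 1 lower at 2 DPT, where 36.0%, 44.1% and 44.6% of all loci were called, 16.4%, 21.0% and 21.6% as higher and 19.6%, 23.1% and 23.0% as lower. The summed FPKM of the 5 repressors from the authors' deposited tables was 81.8, 84.5 and 96.5 in NFD cells, 77.6, 74.0 and 65.8 in N cells and 67.2, 79.5 and 94.9 in FD cells, against 64.3, 67.5 and 88.0 in GFP cells. MXD4 made up 48.9%, 58.6% and 71.3% of it in NFD cells and 74.9%, 79.1% and 81.7% in GFP cells. The ratio of the MYC family sum to the repressor sum was 0.672, 0.618 and 0.845 in NFD, 0.652, 0.714 and 0.691 in N and 0.0840, 0.0599 and 0.0445 in FD cells, against 0.131, 0.159 and 0.127 in GFP cells.

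Promoter letters are shown for the pair of members with the largest rises (MYCL1 and MXD3) and for the pair whose window holds the network's own E-box (MXD4 and MNT). They are the 250 bases before the RefSeq start on GRCh38.p14, 5′ to 3′ on the gene's strand, with matches in capitals, at chr1:39901918-39902167 (minus) for MYCL1, chr5:177312753-177313002 (minus) for MXD3, chr4:2262110-2262359 (minus) for MXD4 and chr17:2401061-2401310 (minus) for MNT.
MYCL1: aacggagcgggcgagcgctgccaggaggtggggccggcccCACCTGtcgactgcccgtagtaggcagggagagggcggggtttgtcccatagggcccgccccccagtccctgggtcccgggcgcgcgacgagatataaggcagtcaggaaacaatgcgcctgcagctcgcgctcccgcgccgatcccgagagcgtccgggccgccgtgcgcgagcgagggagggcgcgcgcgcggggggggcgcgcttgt
MXD3: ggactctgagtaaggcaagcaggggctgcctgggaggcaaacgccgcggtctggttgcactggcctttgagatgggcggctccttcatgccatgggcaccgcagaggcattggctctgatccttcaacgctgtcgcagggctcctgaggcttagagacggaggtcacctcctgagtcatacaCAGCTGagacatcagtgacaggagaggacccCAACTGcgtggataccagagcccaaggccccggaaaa
MXD4: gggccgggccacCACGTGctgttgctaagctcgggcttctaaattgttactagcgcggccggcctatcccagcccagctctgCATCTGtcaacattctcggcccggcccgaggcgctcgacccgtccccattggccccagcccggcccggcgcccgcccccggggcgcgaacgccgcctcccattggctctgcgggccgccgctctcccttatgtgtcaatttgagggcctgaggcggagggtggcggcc
MNT: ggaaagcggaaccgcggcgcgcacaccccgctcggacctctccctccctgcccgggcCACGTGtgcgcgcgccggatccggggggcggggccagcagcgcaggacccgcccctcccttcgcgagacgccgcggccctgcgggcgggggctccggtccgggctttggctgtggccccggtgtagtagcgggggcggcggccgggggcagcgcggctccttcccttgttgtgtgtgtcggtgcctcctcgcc
The search covered both strands of 11 windows of 8 members, and 7 motifs. The first 6 were CACGTG, the E-box of MYC and MAX, CAGATG, an E-box of proneural factors, the related E-box CATATG, the CREB site TGACGTCA, its shorter form TGACG, and the E2F site TTTCCCGC. The general E-box CANNTG, which contains the 3 E-boxes above, was added after the hits of those 6 had been seen. CACGTG was found in MXD4 at -238 and in MNT at -193 from the start, and the E-box CAGATG in MXD4 at -168, where the printed strand reads CATCTG. The E-box CATATG, both CREB forms and the E2F site were in none of the 11 windows. CANNTG was in 7 of the 11 windows, among them MYCL1 at -210 and MXD3 at -68 and -37. Of 35116 RefSeq promoter windows of that length, the E-box CACGTG was in 6.34%, the E-box CAGATG in 12.2%, the E-box CATATG in 2.63%, the CREB site TGACGTCA in 1.65%, its shorter form TGACG in 21.2%, the E2F site TTTCCCGC in 1.39% and the general E-box in 61.8%. A match describes letters and is not a site.

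Genes that MYC is known to activate in ribosome production rose more often than they fell in NFD and N cells. Of 35 tested genes of that list, 16, 23 and 24 rose and 3, 3 and 4 fell in NFD cells, with medians of 0.24, 0.54 and 0.50, in the authors' deposited tables. In N cells 10, 12 and 18 rose and 1, 1 and 2 fell, with medians of 0.16, 0.19 and 0.32, in the authors' deposited tables. RRP9, a component of the U3 small nucleolar particle, rose by 1.19, 2.08 and 1.84 in NFD cells, and MPHOSPH10, another U3 component, by 1.48, 1.42 and 1.51 in NFD and 1.09, 1.31 and 1.37 in N cells (authors' deposited tables). In FD cells the list turned over time: 16 rose at 0.5 DPT, while 14 fell at 1 DPT and 14 at 2 DPT, with medians of 0.30, -0.21 and -0.19, in the authors' deposited tables. The share of all tested loci that rose was 32.1%, 32.6% and 34.1% in NFD, 26.2%, 25.4% and 27.1% in N and 17.8%, 16.0% and 16.9% in FD cells, and 22.3% and 21.6% fell in FD cells at 1 and 2 DPT. The shares that fell were 31.3%, 33.2% and 32.0% in NFD and 24.3%, 29.3% and 30.0% in N cells. NFD was higher than FD for 2, 26 and 26 of the 35 genes and lower for 2, 0 and 0 by the approximate test, where 16.4%, 21.0% and 21.6% of all loci were higher. NFD was higher than N for 0, 4 and 4 of them and lower for 1, 1 and 2, where 5.51%, 9.39% and 9.67% of all loci were higher. The shares of all loci that were lower in NFD were 19.6%, 23.1% and 23.0% against FD and 6.91%, 9.06% and 9.02% against N.

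Genes of metabolism and translation were called in both directions in NFD cells at shares near those of all loci. Of 33 tested, 13, 13 and 15 rose and 9, 8 and 8 fell in NFD, 10, 9 and 15 rose and 9, 14 and 6 fell in N, and 12, 3 and 2 rose and 2, 12 and 10 fell in FD cells, in the authors' deposited tables. HSPD1, the mitochondrial chaperonin, rose by 1.85, 2.09 and 1.47 in NFD cells, whereas SLC1A5, a glutamine transporter, fell, with -0.60, -1.25 and -1.61, in the authors' deposited tables. The HSPD1 locus carries 4 gene names, so its reads may be uncertain. TFRC, the transferrin receptor, rose by 0.88, 0.83 and 0.91 in FD cells in the authors' deposited tables. Of all tested loci, 32.1%, 32.6% and 34.1% rose and 31.3%, 33.2% and 32.0% fell in NFD, 26.2%, 25.4% and 27.1% rose and 24.3%, 29.3% and 30.0% fell in N, and 17.8%, 16.0% and 16.9% rose and 18.8%, 22.3% and 21.6% fell in FD cells. In FD cells rises outnumbered falls at 0.5 DPT and falls outnumbered rises later.

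Cell cycle targets in NFD cells likewise lay around the shares of all loci (32.1%, 32.6% and 34.1% rising, 31.3%, 33.2% and 32.0% falling), with 4 rising and 6 falling of 15 at 0.5 DPT, 6 and 6 of 14 at 1 DPT and 5 and 4 of 15 at 2 DPT in NFD cells in the authors' deposited tables. In N cells 4, 5 and 9 of 15 rose and 7, 3 and 2 fell, and in FD cells 4, 4 and 2 rose and 3, 3 and 3 fell, of 15, 14 and 15, in the authors' deposited tables. Of all loci, 26.2%, 25.4% and 27.1% rose and 24.3%, 29.3% and 30.0% fell in N cells. In FD cells 17.8%, 16.0% and 16.9% rose and 18.8%, 22.3% and 21.6% fell. The 9 of 15 rising in N cells at 2 DPT lay above that share, as did the 7 falling at 0.5 DPT. The list medians in N cells were -0.18, 0.21 and 0.50. E2F1, a driver of S phase entry, rose by 0.68, 2.50 and 3.54 in NFD and 0.62, 1.97 and 2.18 in N cells (authors' deposited tables). CCND1, cyclin D1, fell, with -1.94, -1.50 and -1.79 in NFD and -2.21, -1.96 and -2.23 in N cells, while CCND2, cyclin D2, rose by 2.67, 2.46 and 1.56 in NFD cells, in the authors' deposited tables. The cyclin D genes therefore moved in opposite directions in NFD cells. MCM4 and PLK1 also fell in NFD cells, with -1.15, -0.55 and -0.37 and with -1.49, -1.66 and -0.58, in the authors' deposited tables. CKS2 rose there by 1.11, 1.97 and 1.70 in the same tables. The PLK1 and CKS2 loci each carry 2 gene names, so their reads may be uncertain.

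A further list held genes described as repressed by MYC and MIZ1, and the part of MIZ1 at each gene was not checked. Of its members, 3 rose at each time and 6, 7 and 6 fell in NFD cells, of 11, 10 and 10 tested. The list medians were -0.37, -1.28 and -1.36 in the authors' deposited tables. In N cells 4, 4 and 2 rose and 6, 5 and 6 fell of 10, 9 and 10, and in FD cells 2 and 3 rose at 1 and 2 DPT and 9, 5 and 3 fell of 10, in the authors' deposited tables. NDRG1, a stress and differentiation gene, rose by 1.96, 1.89 and 1.73 in NFD cells and by 2.23, 1.55 and 1.68 in N cells and fell in FD cells, with -0.61, -1.01 and -1.06, in the authors' deposited tables. Over the 12 groups NDRG1 was also among the 5 genes with patterns most like MYC (r = 0.95). THBS1, a matrix glycoprotein, fell in NFD cells, with -1.67, -2.36 and -3.41, and rose in N cells at 0.5 and 1 DPT, by 0.90 and 0.30, in the authors' deposited tables. Falls took 31.3%, 33.2% and 32.0% of all loci in NFD, 24.3%, 29.3% and 30.0% in N and 18.8%, 22.3% and 21.6% in FD cells. Rises took 32.1%, 32.6% and 34.1% in NFD, 26.2%, 25.4% and 27.1% in N and 17.8%, 16.0% and 16.9% in FD cells. THBS1 and PDGFRB are also fibroblast genes, and PDGFRB is among the fibroblast markers whose sum was lowest in NFD cells.

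**Figure D5:**
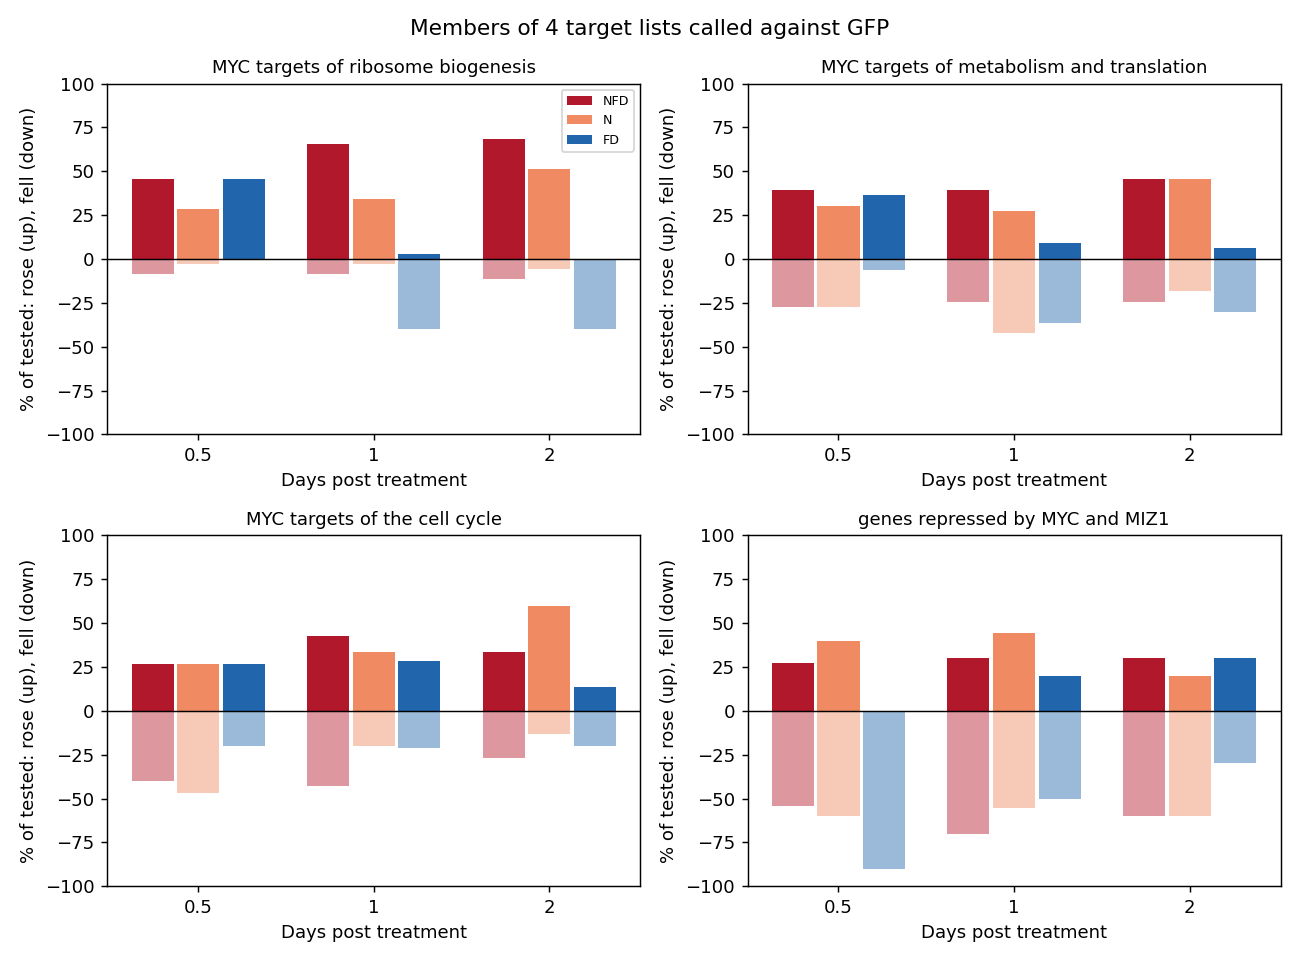
Percent of tested members of 4 target lists that rose (upward bars) or fell (downward, pale bars) against GFP at a q-value at or under 0.05, by days post treatment in NFD, N and FD cells. Of 35 ribosome genes, 16, 23 and 24 rise in NFD and 10, 12 and 18 in N cells at 0.5, 1 and 2 days, and in FD cells 14 fall at 1 and at 2 days.

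Partners and regulators of the network were called in both directions. In NFD cells 32.1%, 32.6% and 34.1% of all loci rose and 31.3%, 33.2% and 32.0% fell, and in N cells 26.2%, 25.4% and 27.1% rose and 24.3%, 29.3% and 30.0% fell. In FD cells 17.8%, 16.0% and 16.9% rose and 18.8%, 22.3% and 21.6% fell. MLXIP, a glucose-sensing factor of the parallel MLX branch, rose by 1.93, 2.00 and 1.45 in NFD and 1.43, 1.26 and 0.62 in N cells, while TXNIP, a target of that branch, fell, with -2.15, -2.32 and -2.06 in NFD and -0.97, -1.36 and -2.25 in N cells (authors' deposited tables). Of the MLX branch list, 2, 3 and 3 of 5 rose and 2, 1 and 1 fell in NFD, 2, 4 and 4 rose and 1, 1 and 2 fell of 5, 5 and 6 in N, and in FD 2 rose and 2 fell at 0.5 DPT and 2 fell at 1 DPT, in the authors' deposited tables. Of 16 coactivators, 1, 9 and 5 rose and 5, 4 and 3 fell in NFD, 1, 3 and 3 rose and 3, 3 and 2 fell in N, and 4, 3 and 1 rose and 1, 3 and 6 fell in FD cells, in the authors' deposited tables. CCNT1, a cyclin of the elongation kinase that MYC recruits, rose in all 3 conditions, by 1.06, 1.13 and 1.01 in NFD cells, in the authors' deposited tables.

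The corepressor that MXD proteins recruit had 6, 3 and 2 of 12 genes rising and 5, 4 and 5 falling in NFD, 3, 2 and 1 rising and 3, 4 and 4 falling in N, and 4, 3 and 1 rising in FD cells, where 1 fell at 0.5 and 1 at 2 DPT, in the authors' deposited tables. SIN3A, its scaffold, fell, with -0.41, -0.65 and -0.67 in NFD and -0.41, -0.63 and -0.42 in N cells, and HDAC1, a deacetylase, fell in NFD cells, with -0.45, -0.78 and -0.91, in the authors' deposited tables. HDAC2, a second deacetylase of the complex, rose by 0.96, 0.34 and 0.29 and SAP18, another subunit, by 0.28, 0.37 and 0.29 in NFD cells, in the authors' deposited tables. The shares of all loci that rose and fell, against which these lists are to be read, are 32.1%, 32.6% and 34.1% and 31.3%, 33.2% and 32.0% in NFD cells. In N cells the shares are 26.2%, 25.4% and 27.1% rising and 24.3%, 29.3% and 30.0% falling. In FD cells they are 17.8%, 16.0% and 16.9% rising and 18.8%, 22.3% and 21.6% falling. Of 14 genes of MYC protein turnover, 3, 3 and 4 rose and 4, 5 and 7 fell in NFD, 2, 3 and 5 rose and 4, 5 and 5 fell in N, and 3, 3 and 2 rose in FD cells, where 3 fell at 0.5 and 1 at 2 DPT, in the authors' deposited tables. FBXW7, which marks MYC protein for degradation, rose by 1.19, 1.05 and 0.94 in NFD and 0.70, 0.66 and 0.65 in N cells (authors' deposited tables). USP36 and USP7 of that list also rose at each time in NFD cells, while AURKA, PPP2R5A and USP28 fell. The FBXW7 and PPP2R5A loci each carry 2 gene names, so their reads may be uncertain.

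Over the 12 groups, the genes with patterns most like MYC were CALHM2 (r = 0.97), TARSL2, KIF13A, NDRG1 and STK10, by Pearson's r of log2(FPKM + 1) among 12434 loci. The genes most like MXD4 were LRRC20, ZNF775, FAM127A, GPR137 and ENDOV, and those most like MXI1 were LAPTM4A, FAM38B, HBP1, TPST1 and IFNGR1. These are descriptions over 12 group values that come in 4 conditions. Among the members, MYC and MNT had r = -0.87 and MYC and MYCL1 r = 0.86 on the same values.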

How the data were processed

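Total RNA of MRC-5 cells was sequenced in 36 libraries (12 groups of 3). The labels call the molecule genomic DNA although the extraction was of RNA. Per the submitters' processing notes, reads were handled with TopHat 1.4.1, Cufflinks 2.1.0 and Cuffdiff 2.1.0 on GRCh37 (hg19). Per the file headers, the authors deposited FPKM as 1 value per group, the log2 fold change of the condition over GFP, and a p-value and q-value from their own test. The depth per library is unknown, and values per library were not analysed here.

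A gene was called where the authors' status was OK and the q-value at or under 0.05. The standard error of a deposited log2 fold change was taken as its size over the normal quantile of its p-value, an upper bound where p is 5e-05. For NFD against N or FD, the departure of NFD from N plus FD, and the change of a fold between 0.5 and 2 DPT, these errors were added in quadrature as if no controls were shared, and p-values were adjusted by Benjamini-Hochberg over all loci tested. The procedure was tested on simulated data. Promoter windows came from RefSeq (GRCh38.p14), for 8 of the 9 members. Python 3.11.15, numpy 2.4.6, pandas 2.3.3, scipy 1.17.1 and matplotlib 3.10.9 were used.

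The 9 members, the 8 other lists (144 genes) and the promoter motifs were chosen with earlier results of these data known, so a list's direction is not independent evidence. From each other list the rule named up to 3 members with the largest rise and 3 with the largest fall at 2 DPT among genes called the same way at every time and reaching 1 FPKM, and the text gives some of these. Alternatives were a q threshold of 0.01, adjustment within a table, a 2-fold minimum, a 1 FPKM filter, median centring, pseudocounts of 1 and 0.1, and a halved variance.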

Additional observations from a re-analysis of the deposited data

Results flagged for a closer look

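For MYC, the NFD effect differed from the sum of the N and FD effects by 1.18 at 1 DPT and by 1.47 at 2 DPT on the log2 scale, by the approximate test of that difference. The N fold of MXD4 changed by -0.77 between 0.5 and 2 DPT. The NFD fold of MXI1 changed by -0.76, and that of MNT by 0.62, over the same interval. Each was picked out because its effect differed between conditions or times by the approximate test. A fold holds the GFP level of its time, which also moved between 0.5 and 2 DPT. MXD4 went from 58.4 to 51.3 FPKM in N and from 48.2 to 71.9 in GFP cells. MXI1 went from 5.92 to 7.86 in NFD and from 3.69 to 8.31 in GFP cells. MNT went from 2.26 to 2.91 in NFD and from 3.87 to 3.23 in GFP cells. The cause of these differences was not tested.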

How the results depend on the processing

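No paired analysis was possible because the deposited tables hold 1 value per group of 3 libraries, and leaving out a replicate could not be run for the same reason. No called result reversed, and median centring turned the sign of 2 folds that were not called, MAX in FD cells at 1 DPT (-0.02 as reported, 0.01 centred) and MXD4 in FD cells at 2 DPT (-0.0087 as reported, 0.0036 centred). The counts of members called against GFP kept within 1.5 times the reported count with a q-value threshold of 0.01, adjustment within a table, a 1 FPKM filter and median centring. Requiring at least 2-fold left 4, 3 and 2 members in NFD, 2, 2 and 2 in N and 0, 1 and 1 in FD cells, and 3347, 3988 and 4167 loci in NFD, 2131, 2506 and 2788 in N and 794, 990 and 1103 in FD cells, by the authors' test. In FD cells at 0.5 DPT, 3 members had an unadjusted p under 0.05.

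With a threshold of 0.01 in the approximate tests, NFD against N called 1 member at 1 DPT and 0 at 2 DPT (3 at an unadjusted p under 0.05), NFD against FD called 3 at 1 DPT, the departure called 0 at 1 DPT (2 at an unadjusted p under 0.05) and the NFD fold over time 1. Over all loci, that threshold called 750, 1279 and 1380 for NFD against N, 2732 and 3783 for NFD against FD at 0.5 and 1 DPT, 211, 941 and 1170 for the departure, and 1780, 969 and 578 for the NFD, N and FD folds over time. Halving the variance, as if the shared controls cancelled, called 4 members for NFD against N and 5 for NFD against FD at 2 DPT, with 4502, 5281 and 5367 loci for NFD against N and 7062 for NFD against FD at 0.5 DPT. The called departure of MYC at 1 DPT is thus lost at 0.01.

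A pseudocount of 1 moved 7 of 69 member folds beyond their implied error, 6 of them MYCL1, to between 4.49 and 5.65, and 1 MNT in NFD cells at 0.5 DPT, to -0.58. A pseudocount of 0.1 and median centring each moved none of the 69. With the pseudocount of 0.1, 4 of the 5 loci closest to MYC and all 5 for MXD4 and MXI1 were shared. The general E-box was added to the promoter search after its first hits were seen. Depth is unknown, so low levels such as those of MYCN cannot be given a counting error.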
